A study of Mus musculus with 19 samples.

Results

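The miR-23, miR-27 and miR-24 microRNAs (miRNAs) were described across small RNA libraries of mouse hippocampal CA1. Members were all miRNA names starting with mmu-miR-23a, 23b, 27a or 27b, or with mmu-miR-24 and a hyphen. The rule found 11 of the 1148 names in the table, whatever their level. Of these names, 5 belong only to the miR-23a cluster (miR-23a, miR-27a and miR-24-2), 5 only to the miR-23b cluster (miR-23b, miR-27b and miR-24-1), and miR-24-3p is made by both.

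All 19 libraries came from wild-type (WT) C57B/6JRj mice, as the strain is spelled in the labels. The young vehicle group held 8 libraries from animals of 3 months, and the aged vehicle group 5 from animals of 20 months. The aged SAHA group held 6 libraries from animals of 20 months. Vehicle was drinking water with 18 g per L of cyclodextrin, so every group received cyclodextrin, and SAHA was added to it at 0.67 g per L. SAHA (vorinostat) inhibits histone deacetylases, enzymes that remove acetyl groups from histones. Treatment lasted 4 weeks in aged mice, and for young mice no duration is stated. The labels do not say whether a library is 1 animal or a pool, so p-values measure the spread between these libraries.

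The clusters are paralogs: each is copied into 1 long primary transcript, from which Drosha and then Dicer cut the hairpins and the mature arms. The seed, bases 2 to 8 of the mature miRNA, does most of the pairing with target mRNAs. The family is best known from blood vessels, where miR-23 and miR-27 repress Sprouty2 and Sema6A, which restrain angiogenic signalling. miR-27 also represses the adipogenic factor Pparg, and in neurons miR-23a and miR-27a repress pro-apoptotic members of the Bcl2 family. In these hairpins the 3p arm is the usual guide strand, and the 5p arm is mostly discarded.

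Of the 11 members, 10 matched a mature sequence in RefSeq (GRCm38.p6 table), and miR-23b-3p is named only. The sequences are shown because they set which members can act on the same targets and which the counting could confuse, with the seed in capitals.
miR-27a-3p: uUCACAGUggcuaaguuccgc
miR-27b-3p: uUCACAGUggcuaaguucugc
miR-23a-3p: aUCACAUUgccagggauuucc
miR-24-3p: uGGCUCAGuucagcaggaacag
miR-24-1-5p: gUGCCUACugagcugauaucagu
miR-24-2-5p: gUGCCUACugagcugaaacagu
miR-27a-5p: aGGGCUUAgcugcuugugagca
miR-27b-5p: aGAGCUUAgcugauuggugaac
Between miR-27a-3p and miR-27b-3p, 20 of 21 bases were identical, and the one substitution is C19U, counted from the 5′ end with the base of miR-27a first. Both carry the seed UCACAGU, which no other of the 891 names with a sequence carries. The 5p arms miR-24-1-5p and miR-24-2-5p also share a seed, UGCCUAC. They aligned with 21 identical bases, 1 mismatch and 1 gap. miR-24-3p has the same 22 bases at both loci, so its counts cannot be divided between the clusters. No source used here says how reads matching several places were counted, so values of near-identical members are uncertain to that extent.

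The hairpins that make the most abundant member and the copy-specific miR-24 arms are shown with both mature arms in capitals.
Mir27b: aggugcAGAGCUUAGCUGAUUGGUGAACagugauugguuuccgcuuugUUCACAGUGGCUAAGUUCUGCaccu
Mir24-2: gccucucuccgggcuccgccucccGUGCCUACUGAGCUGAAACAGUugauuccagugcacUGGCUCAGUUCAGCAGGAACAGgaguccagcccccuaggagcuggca
Mir24-1: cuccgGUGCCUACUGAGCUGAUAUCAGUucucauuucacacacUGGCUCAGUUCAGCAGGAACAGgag
In GRCm38.p6 the miR-23a cluster lies on the plus strand of chromosome 8 and spans 404 bases. Mir23a is at chr8:84208518-84208592, Mir27a at chr8:84208672-84208758 and Mir24-2 at chr8:84208815-84208921. In GENCODE M21 the first pair is intergenic, and Mir24-2 overlaps an exon of the lincRNA gene Gm26532. The miR-23b cluster lies on the plus strand of chromosome 13 and spans 792 bases, inside the protein-coding gene 2010111I01Rik of the same strand. Mir23b, at chr13:63300484-63300557, is intronic. Mir27b, at chr13:63300712-63300784, and Mir24-1, at chr13:63301208-63301275, overlap its exons. An intron of Fancc lies on the opposite strand over all 3 hairpins.

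The libraries held from 3585489 to 6808281 miRNA reads. CPM below are counts per 1000000 after scaling between libraries, and log2 fold changes and adjusted p-values are from edgeR's quasi-likelihood test over all 509 miRNAs that passed a filter on low counts. Across libraries, aged SAHA 1 stood apart: it was the highest of its group in 9 of the 9 members tested. It also had the highest summed CPM of its group in the lists of microglial markers (2009, against 970 to 1404 in the other aged SAHA libraries) and oligodendrocyte markers (8098, against 3736 to 5551). The list of markers of astrocytes in culture was highest there too (4093, against 2185 to 3055). The endothelial and mural list was highest, in summed CPM, in young vehicle 4 (65694), aged vehicle 2 (53278), aged SAHA 1 (60280) and aged SAHA 3 (61368). In the other 15 libraries it was 26040 to 39088 CPM. Neuronal markers were abundant throughout, at 82334 to 92528 CPM in young vehicle, 83338 to 88320 in aged vehicle and 70861 to 76928 in aged SAHA libraries. Each of these lists was detected in every library, and no marker was at 0 in all of them.

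The family took 2.66% to 3.97% of all miRNA counts, and nearly all of it was miR-27b-3p. This member made up 90.3% to 93.2% of the family's counts and ranked 9 among all names by mean share. Names only from the miR-23b cluster held 2.48% to 3.73% of the counts of a library, and names only from the miR-23a cluster 0.0734% to 0.114%. The family's share was 2.66% to 3.26% in young vehicle libraries (median 2.94%), 3.02% to 3.41% in aged vehicle (median 3.04%) and 3.13% to 3.97% in aged SAHA (median 3.48%), so that the groups overlapped.

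By mean CPM over the 19 libraries the order was miR-27b-3p (28988), miR-24-3p (1042), miR-23b-3p (665), miR-27a-3p (516), miR-23a-3p (254), miR-24-2-5p (96.8), miR-27b-5p (63.7), miR-24-1-5p (13.1) and miR-27a-5p (2.26). Mature miRNAs of 21 to 23 bases are compared here, so length plays little part, but the efficiency of cloning differs between sequences and was not measured. Among neighbours in this order, miR-23b-3p and miR-27a-3p had ranges that overlapped over all libraries (552 to 830 and 452 to 682 CPM). So did miR-24-3p and miR-23b-3p (762 to 1314 CPM for the former), and miR-24-2-5p and miR-27b-5p (71.8 to 148 and 49.4 to 77.8). No library of miR-27b-3p came near the next member, with a lowest value of 23733 CPM.

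The 5p arms of miR-23 were almost absent. miR-23a-5p had 5 counts in all, never more than 1 in a library, and was seen in 5 of 19 libraries. miR-23b-5p had 13 counts in 7 of 19 libraries, with at most 3 in a library. A count of 0 in a library still allows up to 0.441 to 0.837 reads per 1000000, depending on its depth and covering counting error only. Both arms failed the filter on low counts and were not tested, which left 9 members in the tests.

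**Figure D1:**
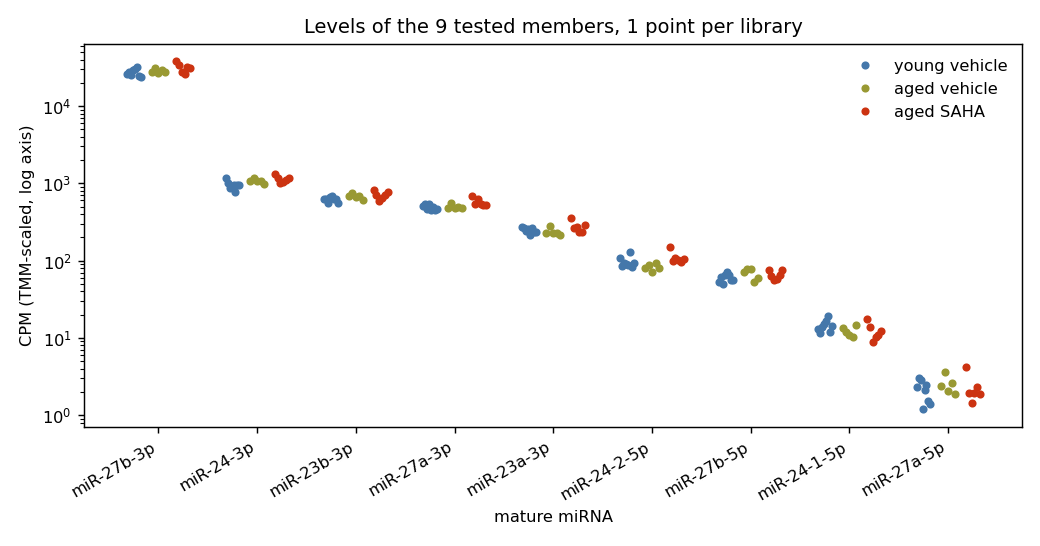
Normalised level of the 9 members tested in each library (CPM, log axis), with 1 point per library coloured by group. miR-27b-3p lies between 23733 and 37911 CPM, far above miR-24-3p at 762 to 1314, and miR-27a-5p is lowest at 1.18 to 4.24.

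Within a cluster the members were far from equal, although they are cut from the same transcript. miR-27b-3p had 38.9 to 51.1 times the counts of miR-23b-3p (median 43.5), whereas miR-27a-3p had only 1.82 to 2.27 times those of miR-23a-3p (median 2.06). miR-24-3p, made by both loci, had 5.84 to 14.8 times the counts of miR-24-2-5p and 39.8 to 115 times those of miR-24-1-5p.

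The miR-23 and miR-27 guide arms of a cluster varied together between libraries. Over the 19 libraries, log2 CPM of miR-23b-3p and miR-27b-3p correlated with Pearson's r = 0.825 (permutation p = 4e-05, adjusted 0.00025 over 10 pairs) and Spearman's rho = 0.821 (adjusted permutation p = 0.0006). Without the 2 libraries farthest from the median of miR-23b-3p the r was 0.695, and after group means were taken out it was 0.776. For miR-23a-3p and miR-27a-3p the r was 0.82 (adjusted permutation p = 0.00025 over 10 pairs) and rho was 0.732 (adjusted permutation p = 0.0032). It was 0.705 without the 2 farthest libraries and 0.807 within groups. These pairs come from the same libraries and share their scaling.

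Arms from different clusters had lower r in these values. Those of miR-23a-3p with miR-23b-3p and with miR-27b-3p rested on few libraries. That of miR-27a-3p with miR-23b-3p depended on which 2 libraries were left out. miR-23a-3p and miR-23b-3p had r = 0.516 (adjusted permutation p = 0.031) but rho = 0.214 (adjusted permutation p = 0.38). For this pair r was 0.0708 without aged SAHA 1 and aged SAHA 6, and 0.503 within groups with all libraries kept. miR-27a-3p and miR-27b-3p had r = 0.588 (adjusted permutation p = 0.021) and rho = 0.458 (adjusted permutation p = 0.1), with r = 0.511 without the 2 farthest libraries and 0.403 within groups. miR-27a-3p and miR-23b-3p had r = 0.524 (adjusted permutation p = 0.031) and rho = 0.379 (adjusted permutation p = 0.14), with r = 0.565 without the 2 farthest libraries and 0.346 within groups. For miR-23a-3p and miR-27b-3p r was 0.551 (adjusted permutation p = 0.025) and rho 0.27 (adjusted permutation p = 0.29), with r = 0.21 without the 2 farthest libraries and 0.476 within groups. Without aged SAHA 1 and young vehicle 6, miR-23a-3p had r = 0.277 with miR-23b-3p (0.323 within groups) and 0.247 with miR-27b-3p (0.214). There miR-27a-3p had r = 0.285 with miR-23b-3p (0.141 within groups) and 0.423 with miR-27b-3p (0.221). The guide arm miR-24-3p is made by both clusters, and its correlations with the other guide arms were uneven. With miR-23b-3p its r was 0.678 (adjusted permutation p = 0.005), with 0.59 without the 2 farthest libraries and 0.511 within groups. With miR-27a-3p its r was 0.554 (adjusted permutation p = 0.025), with 0.491 without the 2 farthest libraries and 0.344 within groups. With miR-23a-3p it was 0.501 (adjusted permutation p = 0.034), with 0.173 without the 2 farthest libraries and 0.498 within groups. With miR-27b-3p it was 0.395 (adjusted permutation p = 0.095), with 0.0659 without the 2 farthest libraries and 0.119 within groups. Without aged SAHA 1 and young vehicle 6, its r was 0.527 with miR-23a-3p and with miR-27b-3p, 0.675 with miR-23b-3p and 0.418 with miR-27a-3p. Over all libraries rho of miR-24-3p was 0.653 with miR-23b-3p (adjusted permutation p = 0.01) and 0.486 with miR-27a-3p (0.093). It was 0.409 with miR-23a-3p and 0.375 with miR-27b-3p (adjusted permutation p = 0.14 for both). Differences between these correlations were not tested.

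**Figure D2:**
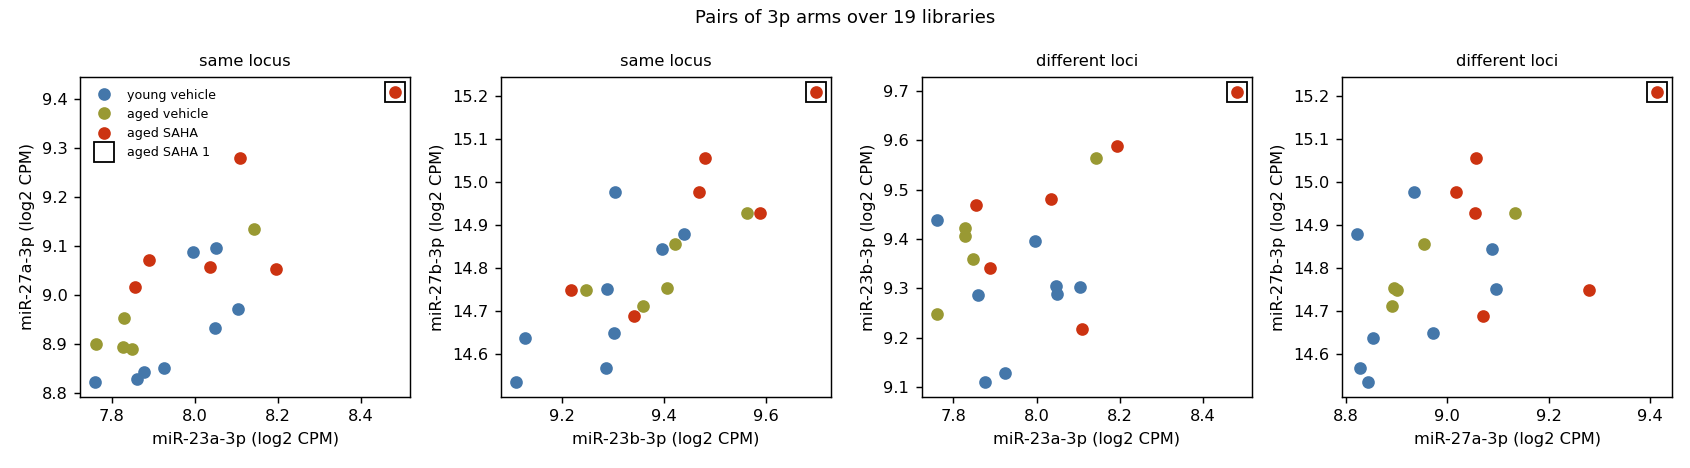
Log2 CPM of pairs of guide arms, 1 point per library, coloured by group, with aged SAHA 1 boxed. The same-cluster pairs miR-23a-3p with miR-27a-3p (r = 0.82) and miR-23b-3p with miR-27b-3p (r = 0.825) lie along a line, and the pairs from different clusters scatter more.

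Among the 379 other miRNAs with enough counts for comparison, the closest to each guide arm were found by Pearson's r of log2 CPM over the 19 libraries. These values describe likeness only, since all miRNAs share the libraries and their scaling. For miR-27b-3p the 3 closest were miR-21-5p (r = 0.914), miR-93-5p (0.87) and miR-181b-5p (0.83). For miR-23b-3p they were miR-15a-5p (0.85), miR-338-3p (0.811) and miR-365-3p (0.802). miR-27a-3p was closest to miR-133a-3p (0.877), miR-10a-5p (0.792) and miR-203-3p (0.78), and miR-23a-3p to miR-15b-5p (0.851), miR-10b-5p (0.77) and miR-133a-3p (0.756). miR-24-3p was closest to miR-146b-5p (0.865), miR-146a-5p (0.857) and miR-16-5p (0.789).

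Spread between replicate libraries was small for the main arms. The pooled SD within groups, on the log2 scale, was 0.13 for miR-27a-3p, 0.14 for miR-23b-3p and miR-24-3p, 0.15 for miR-27b-3p and 0.17 for miR-23a-3p. The median over the 509 miRNAs tested was 0.21. The scarce arms were looser, with 0.26 for miR-24-1-5p and 0.38 for miR-27a-5p.

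The first comparison asks which members differ between aged and young CA1, both on vehicle. No member passed the test: 0 of 9 were called by edgeR, and 0 had an unadjusted p under 0.05 (15.7% of all miRNAs tested had), with 0 calls by DESeq2 and 0 by limma-voom too. Over all miRNAs tested, 2.16% were called (0.196% higher and 1.96% lower), so a count of 0 among 9 is near the background. The members' median log2 fold change was 0.06, with 6 of 9 above 0, beside a median of -0.0030 over all 509. In bulk tissue, a change in the number of cells of a type and a change in RNA per cell cannot be told apart.

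miR-24-3p, a guide arm known to repress the pro-apoptotic gene Bcl2l11, came closest to a call among the members in the age comparison. Its CPM was 762, 946 and 1182 (lowest, median and highest) in young vehicle libraries, and 1057, 1178, 1061, 1060 and 988 in the 5 aged vehicle libraries. Every aged vehicle library lay above the young median, but the groups overlapped. The means were 952 ± 119 (SD, n = 8) and 1069 ± 68.5 CPM (SD, n = 5), and the log2 fold change was 0.17 ± 0.08 (SE; edgeR adjusted p = 0.321).

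miR-27b-3p, the dominant member, was 23733, 26619 and 32263 CPM (lowest, median, highest) in young vehicle, and 27636, 31188, 26819, 29673 and 27538 in aged vehicle libraries. The aged values all lay inside the young range. The 95% interval of its log2 fold change was -0.11 to 0.24 around 0.06, which leaves room for a change of that size in this design. miR-23b-3p, its neighbour in the cluster, was 552, 628 and 694 CPM in young vehicle and 678, 756, 656, 685 and 607 in aged vehicle libraries. Again the groups overlapped, with a log2 fold change of 0.12 ± 0.08 (SE; edgeR adjusted p = 0.456).

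For the miR-23a cluster the age differences were of either sign. miR-23a-3p was 216, 249 and 275 CPM in young vehicle and 227, 282, 230, 227 and 216 in aged vehicle libraries, where all but aged vehicle 2 lay below the young median. Its log2 fold change was -0.07 ± 0.10 (SE; edgeR adjusted p = 0.777). miR-27a-3p was 452, 475 and 547 CPM in young vehicle and 475, 561, 474, 495 and 477 in aged vehicle libraries, with a log2 fold change of 0.02 ± 0.08 (SE; edgeR adjusted p = 0.899). In both miRNAs aged vehicle 2 was the highest of its group, as it was in 6 of the 9 members tested. That library also had the highest sums of its group for endothelial and mural, oligodendrocyte, cultured astrocyte, and choroid plexus and ciliated epithelium markers. Without it the log2 fold changes for age were -0.13 for miR-23a-3p (edgeR adjusted p = 0.579) and -0.0098 for miR-27a-3p (0.983), the latter with its sign turned. Those of miR-24-3p, miR-23b-3p and miR-27b-3p were then 0.14, 0.09 and 0.04 (edgeR adjusted p from 0.488 to 0.855). Among the 5p arms the log2 fold changes were -0.22 ± 0.12 for miR-24-2-5p, -0.22 ± 0.15 for miR-24-1-5p, 0.19 ± 0.11 for miR-27b-5p and 0.22 ± 0.27 for miR-27a-5p (SE; edgeR adjusted p from 0.350 to 0.743).

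**Figure D3:**
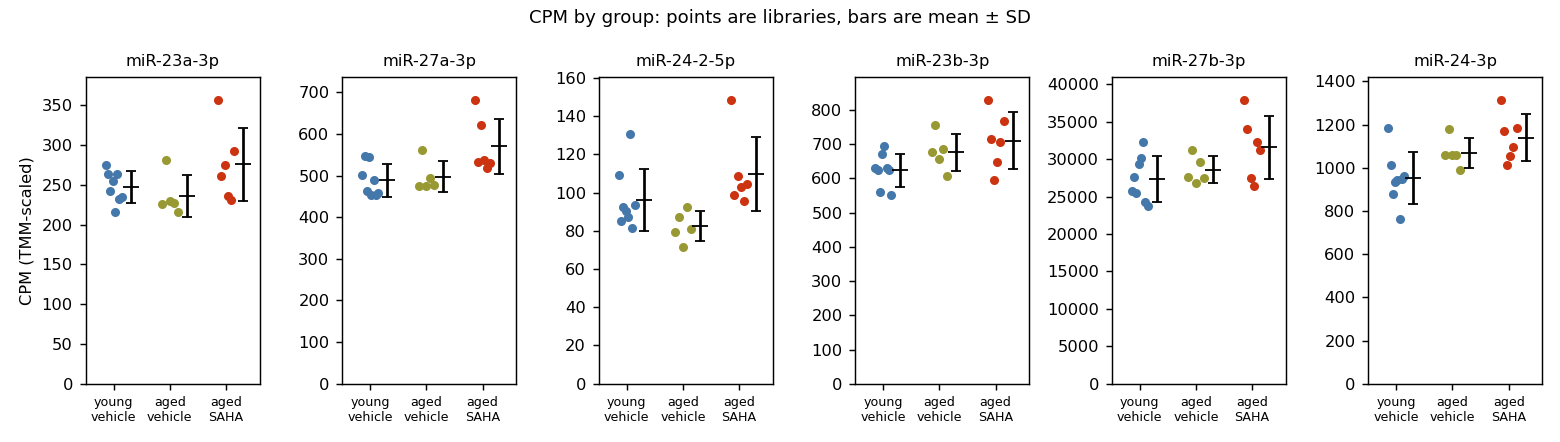
CPM of 6 members in the 3 groups, 1 point per library, with the mean and SD of each group. For miR-24-2-5p the 6 aged SAHA libraries (95.5 to 148 CPM) lie above the 5 aged vehicle libraries (71.8 to 92.6), and for the other 5 members drawn these groups overlap.

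The second comparison asks what oral SAHA changed in aged CA1. No member passed the threshold: 0 of 9 were called by edgeR, where 4.32% of all miRNAs tested were called (1.18% higher and 3.14% lower). At an unadjusted p under 0.05 there were 3 members (miR-24-2-5p, miR-27a-3p and miR-23a-3p), all names of the miR-23a cluster with positive values, beside 19.4% of all miRNAs tested. DESeq2 called 1 member and limma-voom with quality weights called 1, in both cases miR-24-2-5p. Each of these 2 methods called 46 miRNAs in total, against 22 by edgeR, so 1 of 9 is near their background. The median log2 fold change of the 9 was 0.09, with 6 above 0, beside -0.0077 over all 509.

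The member with the smallest p was miR-24-2-5p, the 5p arm that only the miR-23a cluster makes. Its CPM was 79.2, 87.3, 71.8, 92.6 and 81.0 in the aged vehicle libraries, and 95.5, 104 and 148 (lowest, median, highest) in aged SAHA. All 6 aged SAHA libraries lay above all 5 aged vehicle libraries, a separation that 1.57% of the miRNAs tested showed in this direction. The means were 82.4 ± 7.97 (SD, n = 5) and 110 ± 19.5 CPM (SD, n = 6). The log2 fold change was 0.41 ± 0.12 (SE), with a 95% interval of 0.16 to 0.67 and an edgeR adjusted p of 0.0566. Over the alternatives the adjusted p ran from 0.0167 (DESeq2) to 0.156 (without aged vehicle 1). It was under 0.05 without young vehicle 6 (0.0226), aged SAHA 4 (0.0409) or aged SAHA 5 (0.0363), and over it without any other single library, with the replicate block (0.0973) and with copies summed (0.0846). Aged SAHA 1, with its high microglial and oligodendrocyte sums, was the highest at 148 CPM. Without it the log2 fold change was 0.31 with an edgeR adjusted p of 0.0886, and without it and young vehicle 6 together 0.31 with 0.0361. Between the same groups 2 of 8 neuronal markers fell, where 4.32% of all miRNAs tested were called. Of the other lists, 0 of 5 microglial, 0 of 4 oligodendrocyte and 0 of the 8 endothelial and mural markers tested were called. The part of these markers in the result was not tested.

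miR-27a-3p, which shares its seed with miR-27b-3p, was 475, 561, 474, 495 and 477 CPM in aged vehicle and 517, 535 and 682 (lowest, median, highest) in aged SAHA. Only aged vehicle 2 reached into the aged SAHA range. Its log2 fold change was 0.20 ± 0.08 (SE; edgeR adjusted p = 0.154). miR-23a-3p was 231, 269 and 357 CPM in aged SAHA against 216 to 282 in aged vehicle libraries, with overlap and a log2 fold change of 0.22 ± 0.10 (SE; edgeR adjusted p = 0.222). Without aged SAHA 1 these were 0.14 for miR-27a-3p (adjusted p = 0.310) and 0.13 for miR-23a-3p (0.444). Without aged vehicle 2 they were larger, 0.25 for miR-27a-3p (edgeR adjusted p = 0.101) and 0.30 for miR-23a-3p (0.106), and still not called.

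The guides of the miR-23b cluster had smaller values. miR-27b-3p was 26412, 31721 and 37911 CPM in aged SAHA, and its log2 fold change from aged vehicle was 0.14 ± 0.09 (SE; edgeR adjusted p = 0.409). miR-23b-3p was 595, 711 and 830 CPM in aged SAHA, with 0.07 ± 0.08 (adjusted p = 0.690). The shared arm miR-24-3p was 1011, 1135 and 1314 CPM, with 0.09 ± 0.09 (adjusted p = 0.640). For each of the 3, the lowest aged SAHA library lay inside the aged vehicle range or under it. Without aged SAHA 1 the values were 0.08 for miR-27b-3p, 0.02 for miR-23b-3p and 0.05 for miR-24-3p (edgeR adjusted p from 0.658 to 0.890). Without aged vehicle 2 they were 0.18, 0.12 and 0.14 (edgeR adjusted p from 0.303 to 0.475). The log2 fold changes of the remaining 5p arms were -0.04 ± 0.11 for miR-27b-5p, -0.0060 ± 0.16 for miR-24-1-5p and -0.12 ± 0.28 for miR-27a-5p (SE; edgeR adjusted p from 0.842 to 0.980).

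The last comparison sets aged SAHA against young vehicle and so mixes age with treatment. It shares its libraries with the comparisons before it, and is not a separate line of evidence. Here 2 of 9 members rose, miR-24-3p and miR-27a-3p, and none fell. Over all miRNAs tested 13.9% were called, 5.3% as higher and 8.64% as lower, so that 2 of 9 is above the background share but rests on few members. At an unadjusted p under 0.05 there were 4 of 9, beside 32.8% of all miRNAs tested, which is near the background for so few members. The median log2 fold change was 0.19, and 8 of 9 were above 0, beside a median of -0.028 over all 509.

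miR-24-3p rose from 952 ± 119 (SD, n = 8) to 1139 ± 108 CPM (SD, n = 6). The 6 aged SAHA libraries held 1011 to 1314 CPM and the young ones 762 to 1182, so the groups overlapped, with 2 of 6 aged SAHA libraries above every young one. The log2 fold change was 0.26 ± 0.08 (SE; 95% interval 0.10 to 0.42, edgeR adjusted p = 0.0301). The call was lost without young vehicle 3 (adjusted p = 0.0584), aged SAHA 1 (0.0594), aged SAHA 2 (0.0568) or aged SAHA 6 (0.0605), and without aged SAHA 1 and young vehicle 6 together (0.0826).

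miR-27a-3p rose from 488 ± 38.9 (SD, n = 8) to 570 ± 66.1 CPM (SD, n = 6), with 2 of 6 aged SAHA libraries above every young one. Its log2 fold change was 0.22 ± 0.07 (SE; 95% interval 0.07 to 0.37, edgeR adjusted p = 0.0413). This call was lost in 9 of the fits that left out 1 library. The libraries left out were young vehicle 1 (adjusted p = 0.0524), 3 (0.0744), 5 (0.0722), 7 (0.0700) and 8 (0.0725), aged vehicle 3 (0.0647) and 5 (0.0502), and aged SAHA 1 (0.0940) and 3 (0.0834). Limma-voom with quality weights gave an adjusted p of 0.0911.

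miR-23b-3p and miR-27b-3p missed the threshold, with log2 fold changes of 0.19 ± 0.07 and 0.21 ± 0.08 (SE; edgeR adjusted p = 0.0854 for both). Of the aged SAHA libraries, 4 of 6 exceeded every young library in miR-23b-3p and 2 of 6 in miR-27b-3p. DESeq2 called both (adjusted p = 0.0386 and 0.0424). edgeR called miR-23b-3p without aged SAHA 3 (0.0352) or 4 (0.0394), and miR-27b-3p without young vehicle 6 (0.0351) or aged SAHA 4 (0.0190). miR-23a-3p gave 0.15 ± 0.09 (adjusted p = 0.236), and the 5p arms gave 0.19 ± 0.11 for miR-24-2-5p, 0.14 ± 0.10 for miR-27b-5p, 0.10 ± 0.26 for miR-27a-5p and -0.23 ± 0.15 for miR-24-1-5p (adjusted p from 0.230 to 0.815). Without aged SAHA 1, miR-23a-3p gave 0.07, miR-24-2-5p 0.09, miR-24-1-5p -0.36 and miR-27a-5p -0.18 (edgeR adjusted p from 0.0771 to 0.671), and miR-23b-3p and miR-27b-3p 0.14 and 0.15 (0.184 and 0.189). Marker lists differed between the same groups. In aged SAHA against young vehicle, 3 of 5 microglial markers rose (miR-146a-5p, miR-142-5p and miR-155-5p), 1 of 4 oligodendrocyte markers rose (miR-219-2-3p) and 2 of 8 neuronal markers fell (miR-128-3p and miR-9-3p). The summed CPM of the microglial list was 688 to 794 in young vehicle, 925 to 1304 in aged vehicle and 970 to 2009 in aged SAHA libraries. Of the endothelial and mural list, 8 of 11 names were tested and 0 were called. The share of all miRNAs tested that was called in this comparison was 13.9%. Between aged and young vehicle, 1 of 5 microglial markers already rose, miR-146a-5p (0.80 ± 0.17, SE; edgeR adjusted p = 0.00938). There 0 of 4 oligodendrocyte and 0 of 8 neuronal markers were called, beside 2.16% of all miRNAs tested. The part of these cell types in the members' values was not tested.

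**Figure D4:**
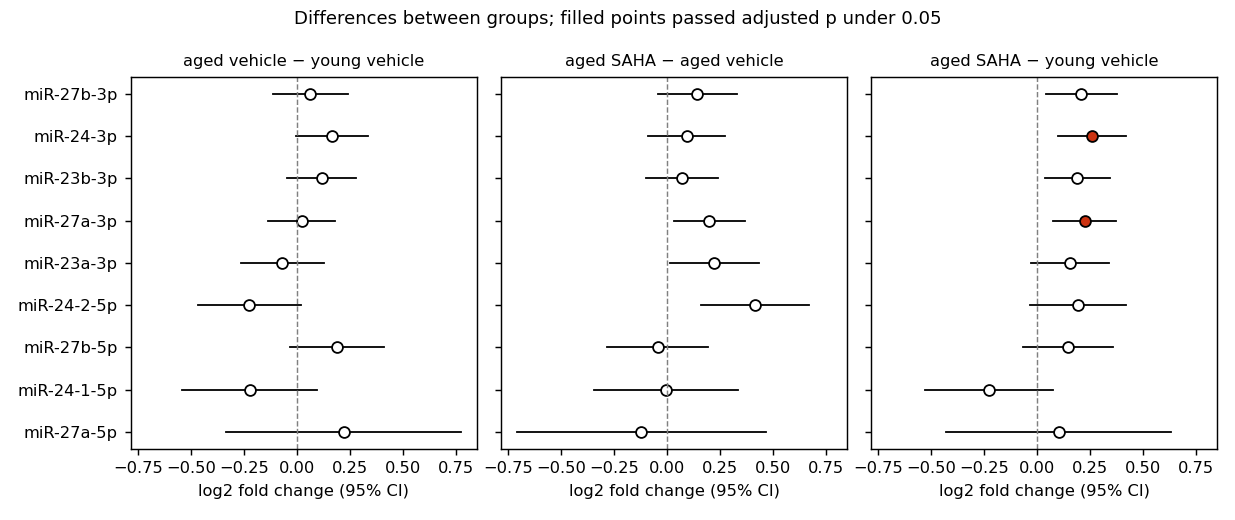
Log2 fold change of the 9 members tested in the 3 comparisons, with 95% intervals from edgeR; filled points passed an adjusted p of 0.05. Only miR-24-3p (0.26) and miR-27a-3p (0.22) in aged SAHA against young vehicle are filled.

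Ratios taken within a library do not depend on scaling between libraries, and were tested with limma over all precursors or pairs that had enough counts. The 3p arm exceeded the 5p arm by a median of 453 times for miR-27b (344 to 564) and 216 times for miR-27a (152 to 408). Neither arm ratio was called in any comparison, where 0%, 14.1% and 10.7% of 149 precursors were called for age, SAHA and aged SAHA against young vehicle. For SAHA the log2 differences were 0.17 ± 0.10 for miR-27b (limma adjusted p = 0.241) and 0.37 ± 0.23 for miR-27a (0.298). Without aged vehicle 4, the library with the highest miR-27b ratio, the former was 0.27 with an adjusted p of 0.0325, and over all fits that left out 1 library it ranged from 0.10 to 0.27 (adjusted p up to 0.549). The 5p arm of miR-27a rests on a mean of 2.26 CPM, which limits its ratio.

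Between paralogs, miR-23b-3p had 2.16 to 3.21 times the counts of miR-23a-3p and miR-27b-3p 44.4 to 66.6 times those of miR-27a-3p. miR-27b-5p had 16.9 to 48.8 times the counts of miR-27a-5p. The miR-24 copies ran the other way: miR-24-2-5p, from the otherwise scarcer miR-23a cluster, had 5.29 to 12.2 times the counts of miR-24-1-5p. The 5p arms of miR-24 thus differ between loci in the opposite direction to those of miR-27.

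The ratio of miR-24-2-5p to miR-24-1-5p was the 1 of 4 paralog ratios called, and only in aged SAHA against young vehicle. There 21.7% of 46 pairs were called, so 1 of 4 is near the background. The shares of pairs called were 6.52% for age and 4.35% for SAHA. Its log2 values averaged 2.74 ± 0.20 (SD, n = 8) in young vehicle, 2.75 ± 0.28 (SD, n = 5) in aged vehicle and 3.17 ± 0.26 (SD, n = 6) in aged SAHA. As a linear ratio this was 5.29 to 8.43 in young vehicle and 7.15 to 12.2 in aged SAHA libraries, and 4 of 6 aged SAHA libraries lay above every young one. The log2 difference was 0.43 ± 0.14 (SE; limma adjusted p = 0.0283, exact two-sided permutation p = 0.00333). The call was lost without young vehicle 4 (adjusted p = 0.0503), aged SAHA 3 (0.0668) or aged SAHA 4 (0.0593).

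SAHA against aged vehicle gave the same size of difference in that ratio, 0.43 ± 0.15 (SE), but not a call (limma adjusted p = 0.0819, exact two-sided permutation p = 0.0303). Without aged vehicle 4 it was 0.53 with an adjusted p of 0.0388, and over all fits that left out 1 library it ranged from 0.34 to 0.53 (adjusted p up to 0.250). Age gave 0.0072 ± 0.14 (adjusted p = 0.986). Neither ratio between guide arms was called in any comparison. For miR-27b-3p against miR-27a-3p the log2 differences were 0.05 ± 0.09, -0.06 ± 0.09 and -0.01 ± 0.08 for age, SAHA and aged SAHA against young vehicle. The 95% intervals were -0.13 to 0.22, -0.25 to 0.13 and -0.18 to 0.16. For miR-23b-3p against miR-23a-3p, age gave 0.19 ± 0.09 (limma adjusted p = 0.205) and SAHA -0.15 ± 0.10 (0.369). Their 95% intervals, not adjusted for the number of pairs, were 0.0024 to 0.37 and -0.34 to 0.05. Aged SAHA against young vehicle gave 0.04 ± 0.08 (limma adjusted p = 0.827).

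**Figure D5:**
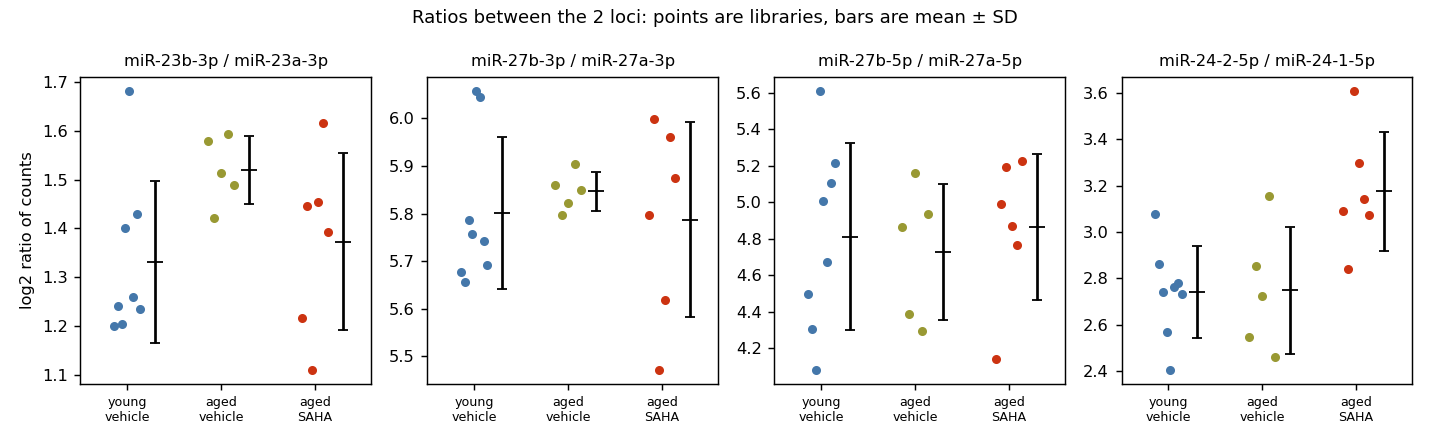
Log2 ratio of counts between paralogous names in each library, by group, with mean and SD. The miR-24-2-5p to miR-24-1-5p ratio averages 2.74 in young vehicle, 2.75 in aged vehicle and 3.17 in aged SAHA, and miR-27b-3p to miR-27a-3p stays between 5.47 and 6.06 in every library.

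miR-128-3p is a neuron-enriched miRNA of 21 bases whose seed is that of miR-27 moved by 1 base. The run UCACAGUG is bases 2 to 9 of miR-27b-3p and bases 1 to 8 of miR-128-3p.
miR-27b-3p: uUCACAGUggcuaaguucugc
miR-128-3p: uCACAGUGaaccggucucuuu
With SAHA miR-128-3p fell from 34553 ± 3222 (SD, n = 5) to 25447 ± 2299 CPM (SD, n = 6), a log2 fold change of -0.44 ± 0.08 (SE; edgeR adjusted p = 0.00344), while age gave -0.02 ± 0.08. miR-27b-3p had 0.65 to 1.19 times the counts of miR-128-3p in young vehicle libraries, 0.77 to 1.06 times in aged vehicle and 0.99 to 1.48 times in aged SAHA. The medians were 0.74, 0.78 and 1.28. This ratio was chosen because miR-128-3p was known to fall, so it is a description and was not tested.

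Genomic neighbours of the clusters are given for comparison. Mir181d lies 29730 bases from Mir23a on the opposite strand of chromosome 8, in an intron of Nanos3. Of the miR-181c and miR-181d arms, 3 of 4 were tested. With age miR-181c-5p and miR-181c-3p fell (-0.42 ± 0.07 and -0.29 ± 0.06, SE), with SAHA miR-181c-5p rose (0.31 ± 0.08), and in aged SAHA against young vehicle miR-181c-3p and miR-181d-5p fell (-0.18 ± 0.06 and -0.29 ± 0.05). The Mir3074 hairpins lie on the strand opposite to Mir24-2 and Mir24-1, overlapping them by 83 and 68 bases. Their 3 names summed to only 2.16 to 4.02 CPM, and the 1 tested, miR-3074-5p, was not called in any comparison.

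Other miRNAs known from angiogenesis, listed apart from the members, are given by their counts. All 16 names of the list were tested. With age 0 rose and 1 fell, miR-296-5p (-0.90 ± 0.17, SE; edgeR adjusted p = 0.0026). With SAHA 0 rose and 1 fell, miR-222-3p (-0.42 ± 0.09; adjusted p = 0.00937). In aged SAHA against young vehicle the hypoxia-induced miR-210-3p and miR-210-5p rose (0.67 ± 0.14 and 0.69 ± 0.17) and miR-296-5p fell (-0.95 ± 0.16). Over all miRNAs tested 2.16%, 4.32% and 13.9% were called in these comparisons. The list's counts of 1, 1 and 3 of 16 are above these shares but rest on few calls. Both rises are arms of the miR-210 hairpin. The medians of the list were -0.01, -0.01 and -0.07, beside -0.0030, -0.0077 and -0.028 over all miRNAs tested.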

How the data were processed

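The authors deposited unnormalised counts of reads per mature miRNA, in 1 file per library, from CA1 RNA prepared with TruSeq reagents per the labels' protocols. The submitters' processing notes name CASAVA 1.8.2, cutadapt, STAR, HTSeq and mm10. Their settings, the annotation release and the rule for reads matching several places are not given. The 4 HTSeq summary lines were 0 in every library and were left out. Reads carry no molecular identifiers, so intervals and floors cover counting error only.

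All 19 libraries were fitted with edgeR 4.0.16 in R 4.3.3 (filterByExpr with minimum count 10 and minimum total 15, TMM, robust quasi-likelihood, 1 term per group). This tested 509 miRNAs and left 639 out. Calls were made at a p under 0.05 after Benjamini-Hochberg adjustment over all of them, and the SE is the log2 fold change divided by the square root of F. Arm and paralog ratios, log2 with 0.5 added to each count and means of at least 10 counts, were tested with limma 3.58.1. Correlations used two-sided permutation tests (SciPy 1.17.1). The scripts were tested on simulated data. No library was a copy of another.

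Every member is named, and the 5 with a mean of at least 100 CPM are given in full. miR-24-2-5p was added to these after its values were seen. The members and lists were chosen with earlier results of these data known. Sequences and positions are from RefSeq (GRCm38.p6), and gene overlaps from GENCODE M21. Alternatives were other scalings and filters, DESeq2 1.42.0, limma-voom, only the groups compared, summed copies, leaving out the 3 most abundant miRNAs or each library in turn, aged SAHA 1 and young vehicle 6 left out together, and the replicate number as a block. Sex and sequencing batch are in no label and were not tested.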

Additional observations from a re-analysis of the deposited data

Results flagged for a closer look

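In 4 of 45 groups of values, 1 library stood far from the rest of its group by Dixon's criterion, which chance meets in about 1 of 20 groups. In aged vehicle 2, miR-23a-3p was at 282.0 CPM, against 216.4 to 229.8 in the other 4 libraries, and miR-27a-3p at 561.3 CPM, against 474.0 to 495.1. The endothelial and mural list summed to 53278 CPM in that library and to 26077 to 30405 in the other 4. Other lists were highest there too. These were oligodendrocyte (5622, against 4047 to 4645 CPM), cultured astrocyte (3013, against 2303 to 2461) and choroid plexus and ciliated epithelium markers (3743, against 2383 to 3241). In aged SAHA 1, miR-24-2-5p was at 148.5 CPM, against 95.5 to 108.5 in the other 5 libraries. In the same library miR-27a-5p was at 4.237 CPM, against 1.439 to 2.301. The part of the marker lists in these values was not tested.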

How the results depend on the processing

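Apart from leaving out single libraries, 359 values of single members or ratios kept their direction and side of the threshold, 10 gained a call, 5 lost one and 10 changed sign. All that changed sign were small and not called. Members called for SAHA were 1 in place of 0 with DESeq2 size factors, library size only, DESeq2, limma-voom, a CPM filter (10 in 5 libraries) and without aged SAHA 1 and young vehicle 6. In aged SAHA against young vehicle they were 4 with library size only and with DESeq2, 1 with limma-voom, with copies summed and with the replicate block, and 0 without the 2 libraries. Calls over all miRNAs for age were 20 (DESeq2), 23 (limma-voom), 19 (only the groups compared) and 18 (without the 2 libraries), against 11, and for SAHA 46 (DESeq2), 46 (limma-voom) and 37 (without the 2 libraries), against 22. Signs changed for miR-24-1-5p with SAHA (0.0036 with DESeq2 size factors, 0.0029 with DESeq2, 0.0086 with only the groups compared, 0.011 without the 3 most abundant). In aged SAHA against young vehicle they changed for miR-27a-5p (-0.033 with limma-voom, -0.15 without the 2 libraries) and for miR-27b-3p over miR-27a-3p (0.019 without the 2 libraries). No label ties libraries with equal replicate numbers together. Same-numbered libraries correlated at -0.319 to 0.321 over 15 pairs, 4 of them over 0.1, and 3 of 19 correlated best with their own number. Low correlations cannot exclude a shared litter, day or batch. With the replicate block, miR-27a-3p gave -0.018 for age and an adjusted p of 0.119 in aged SAHA against young vehicle, miR-27a-5p gave -0.052 there, miR-27b-5p over miR-27a-5p gave 0.068 for age, and paralog ratios called in aged SAHA against young vehicle were 0. Leaving out each library in turn gave 8 to 14 calls over all miRNAs for age, 11 to 33 for SAHA and 57 to 81 for aged SAHA against young vehicle. Members called were 0 for age, 0 to 1 for SAHA and 0 to 4 for aged SAHA against young vehicle, arm ratios 0 to 1 for SAHA, and paralog ratios 0 to 1 in both comparisons with SAHA. Signs changed within these leave-one-out ranges. For age they were -0.0098 to 0.059 for miR-27a-3p, -0.095 to 0.079 for miR-24-2-5p over miR-24-1-5p and -0.19 to 0.031 for miR-27b-5p over miR-27a-5p. For SAHA they were -0.13 to 0.079 for miR-24-1-5p, -0.40 to 0.054 for miR-27a-5p, -0.12 to 0.011 for miR-27b-5p and -0.10 to 0.0038 for miR-27b-3p over miR-27a-3p. For aged SAHA against young vehicle they were -0.18 to 0.21 for miR-27a-5p, -0.0093 to 0.26 for the arm ratio of miR-27a, -0.0074 to 0.094 for miR-23b-3p over miR-23a-3p, -0.057 to 0.049 for miR-27b-3p over miR-27a-3p and -0.052 to 0.20 for miR-27b-5p over miR-27a-5p. The cause of these changes was not tested. Depth limits miR-23a-5p, miR-23b-5p and miR-27a-5p.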
